A study of Mus musculus with 13 samples.

Results

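The SLAM family receptors are 9 related cell surface proteins of blood cells, encoded in the mouse by Slamf1, Cd48, Cd244, Ly9, Cd84, Slamf6, Slamf7, Slamf8 and Slamf9. A probe set, a short group of array probes that queries part of a gene, was counted as a member's when the probe-to-gene table listed it with that gene and no other. All 9 genes were found, with 90 of the 229581 probe sets on the array, and 9 of the 16299 genes named there. Cd244 is given under its older symbol and is Cd244a in RefSeq.

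The study measured RNA of blood stem and progenitor cells sorted from bone marrow of individual mice, with 1 mouse per Affymetrix Mouse Exon 1.0 ST array and 13 arrays in all. All mice carried the strain label Bl/6 Taconic. The mCG-PR mice, labelled N17, express the leukaemia fusion PML-RARA from the murine cathepsin G locus, a gene of developing myeloid cells, and the wild-type (WT) mice are littermates. The groups were mCG-PR SLAM cells of mice aged 7 weeks (n = 2), WT SLAM cells of 6 weeks (n = 2), mCG-PR KLS cells of 13 weeks (n = 2), mCG-PR KLS cells of 6 weeks (n = 3) and WT KLS cells (n = 4, 2 mice of 12 weeks and 2 of 13 weeks). Population and age were therefore nearly matched within mCG-PR mice (SLAM of 7 weeks, KLS of 6 weeks) but not within WT mice, where population and age cannot be told apart. KLS stands in this field for marrow cells that bear Kit and Sca-1 and lack lineage markers, and SLAM for the stem cell fraction of these defined by SLAM family proteins. The sources used here do not give the gates themselves.

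SLAM family receptors have immunoglobulin-like outer domains, and most bind a copy of themselves on a neighbouring cell, while Cd48 and Cd244 bind each other. Inside the cell, most of the longer receptors carry tyrosine motifs that recruit the adaptors SAP and EAT-2 and through them Src-type kinases or phosphatases. In mouse marrow, stem cells are usually sorted as positive for CD150, the product of Slamf1, and negative for CD48, often also for CD244, so the difference of those 3 genes between SLAM and KLS cells is a check of the sort and not a finding. In the RefSeq annotation the 9 genes lie on chromosome 1, with Cd244, Ly9, Slamf7, Cd48, Slamf1, Cd84 and Slamf6 following each other and Slamf9 and Slamf8 farther along.

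The promoters of the 3 sort markers are shown here because Slamf1 differed between SLAM and KLS cells in the opposite direction to Cd48 and Cd244 of the same chromosome region. The difference of Slamf1 was called in WT mice only. Each is the 250 bases before the gene start in a RefSeq promoter table (GRCm38.p6, plus strand, 5′ to 3′), in which 8 of the 9 members were found. The Slamf1 stretch is chr1:171766882-171767131, the Cd48 stretch is chr1:171681742-171681991 and the Cd244 stretch is chr1:171558943-171559192. For Cd48 and Cd244 the start used by that table lies inside the annotated gene. Capitals mark a match to 1 of 5 motifs that were searched on both strands.
Slamf1: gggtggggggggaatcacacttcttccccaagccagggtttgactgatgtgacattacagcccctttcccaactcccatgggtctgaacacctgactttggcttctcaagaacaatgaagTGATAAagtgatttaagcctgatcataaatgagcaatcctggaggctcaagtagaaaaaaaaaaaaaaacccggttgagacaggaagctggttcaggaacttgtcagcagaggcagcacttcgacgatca
Cd48: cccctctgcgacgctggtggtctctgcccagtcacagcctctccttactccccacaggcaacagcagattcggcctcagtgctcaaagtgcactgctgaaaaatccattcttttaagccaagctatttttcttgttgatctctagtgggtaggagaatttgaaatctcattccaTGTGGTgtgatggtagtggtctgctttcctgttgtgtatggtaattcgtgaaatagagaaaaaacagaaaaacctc
Cd244: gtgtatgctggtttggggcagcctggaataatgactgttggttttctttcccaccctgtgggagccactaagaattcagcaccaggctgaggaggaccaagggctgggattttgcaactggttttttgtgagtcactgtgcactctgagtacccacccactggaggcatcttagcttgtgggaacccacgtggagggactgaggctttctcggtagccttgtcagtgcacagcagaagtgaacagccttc
The Slamf1 stretch holds TGATAA, a sequence of the kind that GATA factors read, 130 bases before the start, as do 7.94% of the 32851 promoters in the table. The Cd48 stretch holds TGTGGT, a sequence that RUNX factors read, 76 bases before the start, as do 14.0% of all promoters. The Cd244 stretch holds neither of them. The other motifs searched were AGATAA, also of GATA factors (in 9.99% of promoters), CCGGAA of ETS factors (12.0%) and CAGCTG, an E-box (13.0%), and none of these is in the stretches shown. A match is a description of these letters and no evidence of binding.

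The deposited intensities were set by the authors with RMA, and a gene's value was the median log2 intensity of its probe sets on that array. A difference of 1 on this scale is a doubling of intensity. Array medians lay between 98.6 and 115.3 intensity units, and precision is limited by how few arrays a group has. Genes whose mean over the 13 arrays exceeded log2 5.996 entered the tests, which took in 10586 genes and 6 of the 9 members. Slamf6, Slamf7 and Slamf8 were below that level. Slamf1 passed it because of the SLAM arrays, since its mean in each KLS group was under the threshold, and Cd48 because of the KLS arrays, since its mean in both SLAM groups was under it. Counts over the 6 tested members are therefore given as a description. Differences were tested with limma, two-sided, with Benjamini-Hochberg adjustment over all 10586 genes and a threshold of 0.05. Values after ± are limma standard errors unless marked SD.

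The arrays largely bore out their labels. Kit, the stem cell factor receptor, was between 9.56 and 10.51 log2 units on all arrays, and Ly6a, which encodes Sca-1, between 8.51 and 9.89. Flt3 and Cd34, genes of multipotent progenitors, were both lower in SLAM than in KLS cells of each genotype: the log2 change of Flt3 was -2.21 ± 0.26 in mCG-PR mice and -2.67 ± 0.26 in WT mice (limma, adjusted p = 0.000301 and 5.76e-05). Of 12 entries for long-term stem cell genes, 4 were higher in mCG-PR SLAM than in mCG-PR KLS cells, where 0.812% of all tested genes were called higher. In WT mice 2 were higher in SLAM than in KLS cells, Tek and Vwf, where 0.35% of all tested genes were called higher. Tek passed the threshold for testing because of the SLAM arrays, where it averaged 6.94. Its mean over the KLS arrays was 5.96, under that threshold, while that of Vwf was 6.51, above it. The WT count is therefore given as a description. A pair of arrays stood apart in markers of other cells, as described beside the members they touch. Y-linked genes averaged 4.28 and 4.23 log2 units in the mCG-PR SLAM arrays and 4.53 in replicate 3 of mCG-PR KLS of 6 weeks, while the other 10 arrays had 7.67 to 8.48. In the SLAM cells this split coincides with genotype, so the 2 cannot be told apart in any comparison of mCG-PR with WT SLAM cells. The split also partly coincides with population in mCG-PR mice, where the KLS arrays of 6 weeks had 8.46, 8.38 and 4.53. Its part in the SLAM minus KLS differences of mCG-PR mice was not tested, nor its part in the difference of the mCG-PR effects between populations.

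**Figure D1:**
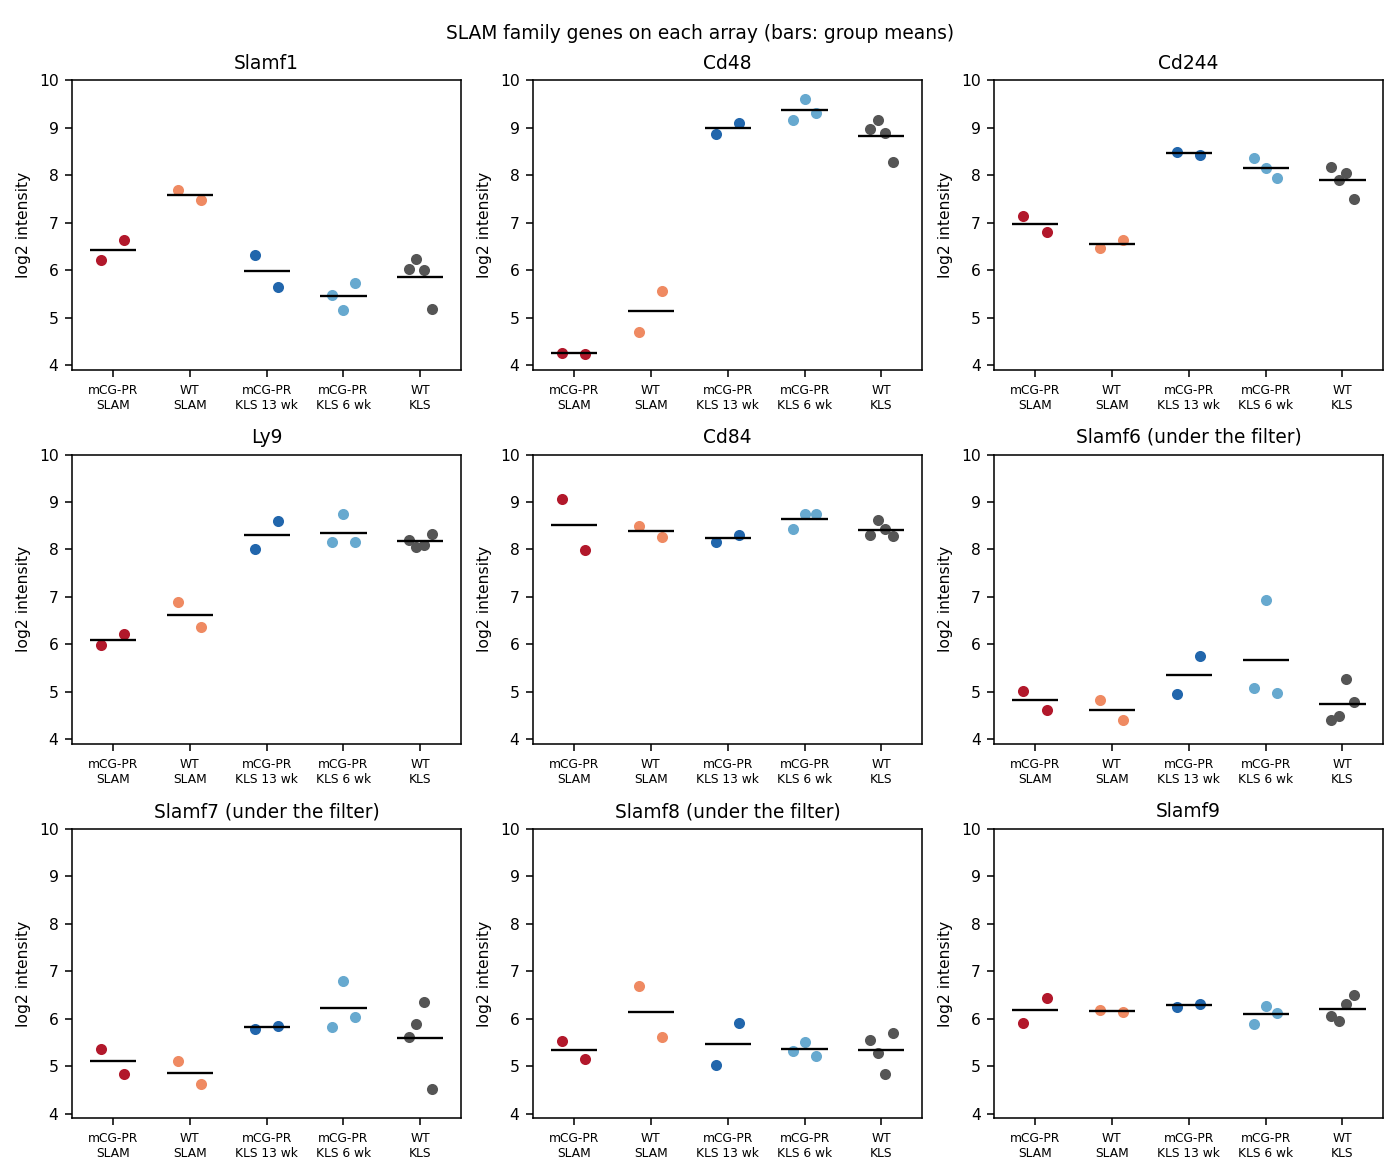
Log2 intensity of the 9 SLAM family genes on each of the 13 arrays, with 1 panel per gene, 1 point per array and a bar at each group mean. Cd48, Cd244 and Ly9 are lower on every SLAM array than on every KLS array, Slamf1 is highest on the WT SLAM arrays, and Cd84 and Slamf9 lie at similar heights in all groups.

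Between the sorted populations, members differed in direction. In WT mice, 4 of the 6 tested members differed between SLAM and KLS cells, Slamf1 being higher and Cd48, Cd244 and Ly9 lower, where 3.12% of all tested genes were called (0.35% higher and 2.77% lower). In mCG-PR mice, Cd48, Cd244 and Ly9 were again lower in SLAM cells and no member was called higher, so that 3 of 6 were called against 13.1% of all tested genes (0.812% higher and 12.3% lower). The 2 comparisons share no arrays, but both came from the same fit of all 13 arrays with a shared spread, so their tests are not independent. The arrays of the compared groups did not overlap for 4 of 6 members in each genotype, as for 48.2% of all tested genes in mCG-PR mice and 35.2% in WT mice. Of these genes, Ly9 is the one that is not part of the usual SLAM gate, and Cd84 and Slamf9 did not pass in either genotype. The median change over all tested genes was -0.19 in mCG-PR mice and -0.05 in WT mice. On simulated data the fits of SLAM against KLS cells and of the interaction made more false calls than the threshold of 0.05 allows. False calls were 64 of 190 calls for WT cells, 36 of 162 for mCG-PR cells and 33 of 101 for the interaction. A call in these fits is therefore less certain than its adjusted p states, particularly a call near the threshold. In bulk RNA, fewer cells that express a gene and less RNA per cell cannot be told apart.

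Slamf1 encodes CD150, a receptor that binds itself and whose presence marks stem cells in the SLAM gate. Its values were 6.21 and 6.63 log2 units in mCG-PR SLAM cells, 7.68 and 7.47 in WT SLAM cells, 6.31 and 5.65 in mCG-PR KLS cells of 13 weeks, 5.48, 5.17 and 5.74 in mCG-PR KLS cells of 6 weeks, and 6.03, 6.24, 6.00 and 5.19 in WT KLS cells. Both WT SLAM arrays were above all others, while the lower mCG-PR SLAM array was within the range of the KLS arrays as a whole, though above the KLS arrays of its own genotype at 6 weeks.

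As a check of the sort, Slamf1 was higher in WT SLAM than in WT KLS cells by 1.71 ± 0.41, a 3.27-fold difference (95% interval 0.83 to 2.59, limma, adjusted p = 0.0363). In mCG-PR mice the difference was 0.96 ± 0.42 (0.06 to 1.86) and did not pass (adjusted p = 0.158). Of its 8 probe sets, 7 were higher in mCG-PR SLAM than in mCG-PR KLS cells, 3 of them without overlap, and 8 were higher in WT SLAM than in WT KLS cells, 4 without overlap. The share without overlap over all probe sets was not counted, so such counts of probe sets are a description. The SLAM minus KLS differences of the 2 genotypes were not shown to be unequal: the difference between them was -0.75 (adjusted p = 0.833). Age enters this comparison too, as the WT KLS mice were older than the others in it. The WT call rests on few arrays. Its adjusted p was 0.206 without WT SLAM replicate 1, 0.174 without WT SLAM replicate 2, 0.0501 without WT KLS replicate 1 and 0.0511 without WT KLS replicate 3, with changes of 1.61, 1.81, 1.76 and 1.75.

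Cd48 encodes a receptor held in the membrane by a lipid anchor, which binds Cd244 and, in the mouse, also Cd2. It had 4.26 and 4.24 log2 units in mCG-PR SLAM cells and 4.70 and 5.56 in WT SLAM cells. It had 8.87 and 9.11 in mCG-PR KLS cells of 13 weeks, 9.17, 9.61 and 9.32 in those of 6 weeks, and 8.98, 9.16, 8.89 and 8.28 in WT KLS cells. SLAM and KLS arrays were far apart, with a gap of several log2 units between the highest SLAM and the lowest KLS array.

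Of all measured genes, 4.08% were lower than Cd48 in mCG-PR SLAM cells and 12.2% in WT SLAM cells, against 94.3% in mCG-PR KLS cells of 6 weeks and 91.8% in WT KLS cells. As a check of the sort, Cd48 was 34.6-fold lower in mCG-PR SLAM than in mCG-PR KLS cells of 6 weeks (log2 change -5.11 ± 0.36, 95% interval -5.88 to -4.35, limma, adjusted p = 1.99e-06). It was 13.0-fold lower in WT SLAM than in WT KLS cells (log2 change -3.70 ± 0.35, -4.45 to -2.95, adjusted p = 5.76e-05). The SLAM values lie near the bottom of the scale, so these folds are ratios of measured intensity and may not be ratios of RNA.

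The higher of the WT SLAM values of Cd48, 5.56 on replicate 2, came from the array with the most B cell signal. The mean of the 5 measured B cell genes of a list of 6 was 7.36 there, while WT SLAM replicate 1 had 5.88, the mCG-PR SLAM arrays had 6.21 and 6.14 and the KLS arrays 6.04 to 6.56. Its mean of 4 mast cell and basophil genes was 6.20, against 4.51 to 5.14 on the other SLAM arrays. Of these genes, Mcpt8 (8.90) and Ms4a2 (6.14) were highest there among the SLAM arrays. Cpa3 (5.14) was higher on mCG-PR SLAM replicate 1 (7.08), and Fcer1a (4.63) on mCG-PR SLAM replicate 2 (4.91). The mean of the T cell genes on WT SLAM replicate 2, 6.29, was the highest of all arrays. Without that array the difference of WT SLAM from WT KLS cells was -4.13 (adjusted p = 0.000999), and the part of these cells in the Cd48 value was not tested.

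Of the 9 probe sets of Cd48, 9 were lower in mCG-PR SLAM than in mCG-PR KLS cells, 8 of them without overlap, with differences from -5.87 to -0.23. In WT mice 8 were lower, 7 without overlap, with differences from -4.50 to 0.22. The 2 dimmest of these probe sets averaged 2.68 and 2.98 log2 units over all arrays, with group means from 2.01 to 4.05 log2 units.

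Cd244 encodes 2B4, the receptor for Cd48, known best from natural killer cells. Its values were 7.14 and 6.80 log2 units in mCG-PR SLAM cells, 6.46 and 6.63 in WT SLAM cells, 8.49 and 8.43 in mCG-PR KLS cells of 13 weeks, 8.36, 8.15 and 7.94 in those of 6 weeks, and 8.18, 7.91, 8.05 and 7.49 in WT KLS cells. No SLAM array reached the lowest KLS array. As a check of the sort, it was 2.26-fold lower in SLAM than in KLS cells of mCG-PR mice (log2 change -1.18 ± 0.30, 95% interval -1.82 to -0.53, limma, adjusted p = 0.0197). In WT mice it was 2.57-fold lower (log2 change -1.36 ± 0.30, -1.99 to -0.73, adjusted p = 0.0239).

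All 13 of its probe sets were lower in SLAM cells in both genotypes, 13 without overlap in mCG-PR mice and 10 in WT mice. Neither call held after quantile normalisation (limma, adjusted p = 0.149 in mCG-PR and 0.0676 in WT mice). The WT call was also lost with WT KLS replicates 3 and 4 only (adjusted p = 0.0625). The call of Cd244 was lost when 1 SLAM array was left out. Its adjusted p was 0.0902 without mCG-PR SLAM replicate 1 and 0.193 without replicate 2, and 0.161 without WT SLAM replicate 1 and 0.127 without replicate 2, with changes of -1.34, -1.01, -1.28 and -1.45.

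**Figure D2:**
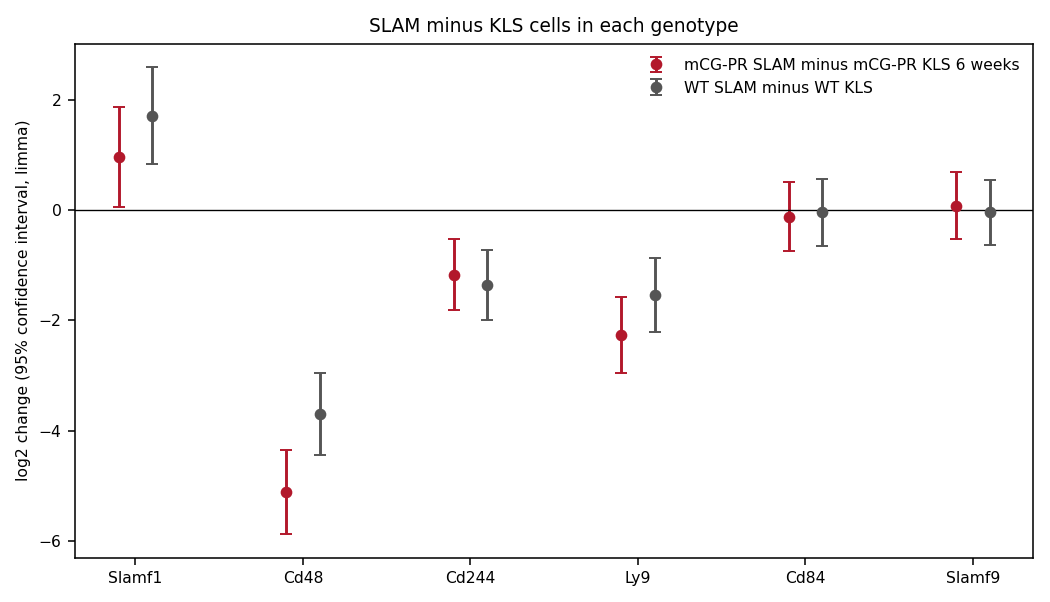
Log2 difference of SLAM minus KLS cells for the 6 tested members, mCG-PR cells left of WT cells, with 95% confidence intervals from limma. The intervals of Cd48, Cd244 and Ly9 lie below 0 in both genotypes, from -5.11 for Cd48 in mCG-PR mice to -1.18 for Cd244 in mCG-PR mice, and those of Cd84 and Slamf9 span 0.

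Ly9 encodes CD229, a large receptor of the family that binds itself and is known from T and B cells. It had 5.99 and 6.21 log2 units in mCG-PR SLAM cells and 6.89 and 6.36 in WT SLAM cells. It had 8.02 and 8.59 in mCG-PR KLS cells of 13 weeks, 8.16, 8.75 and 8.16 in those of 6 weeks, and 8.20, 8.06, 8.10 and 8.33 in WT KLS cells. Every SLAM array was more than 1 log2 unit below every KLS array.

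Ly9 was 4.79-fold lower in mCG-PR SLAM than in mCG-PR KLS cells of 6 weeks (log2 change -2.26 ± 0.32, 95% interval -2.95 to -1.57, adjusted p = 0.000906). In WT mice it was 2.93-fold lower (log2 change -1.55 ± 0.32, -2.22 to -0.87, adjusted p = 0.0184). The mCG-PR call held in 12 of 12 alternative settings, each time with an adjusted p of 0.0203 or less. The WT call held in 11 of 15, and its adjusted p was 0.0602 without WT SLAM replicate 1 and 0.204 without WT SLAM replicate 2, with changes of -1.81 and -1.28.

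Most probe sets of Ly9 showed this difference. In mCG-PR mice 14 of 14 were lower in SLAM cells, 11 without overlap, with differences from -3.22 to -0.17. In WT mice 12 of 14 were lower, 9 without overlap, with differences from -2.48 to 0.42. Probe sets of 1 gene share RNA and are not replicates.

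**Figure D3:**
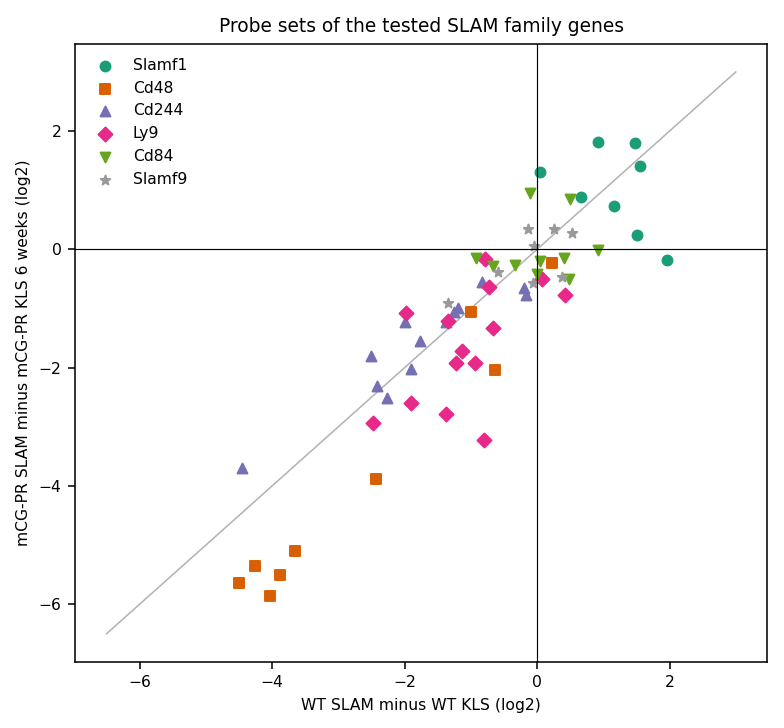
Difference of SLAM minus KLS cells in log2 units for each probe set of the 6 tested members, WT mice on the horizontal axis and mCG-PR mice on the vertical axis, with a grey line of equal difference. The probe sets of Cd244 and most of those of Ly9 and Cd48 fall in the lower left, those of Slamf1 to the right, and those of Cd84 and Slamf9 on both sides of 0.

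Cd84 encodes a receptor that binds itself, known from platelets, mast cells and B cells. Its values were 9.06 and 7.99 log2 units in mCG-PR SLAM cells, 8.49 and 8.27 in WT SLAM cells, 8.16 and 8.31 in mCG-PR KLS cells of 13 weeks, 8.44, 8.74 and 8.75 in those of 6 weeks, and 8.30, 8.63, 8.44 and 8.29 in WT KLS cells. The highest and the lowest value of all arrays both came from mCG-PR SLAM cells. The difference of SLAM from KLS cells was -0.12 in mCG-PR mice (adjusted p = 0.843) and -0.04 ± 0.29 in WT mice (95% interval -0.65 to 0.57, adjusted p = 0.970). The WT interval ends short of the changes of Cd48, Cd244 and Ly9 in the same comparison. Of its 10 probe sets, 2 were higher and 8 lower in mCG-PR SLAM cells, none without overlap, and 5 were higher and 5 lower in WT SLAM cells.

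Slamf9, a small member of the family without the tyrosine motifs of its relatives, was nearly level. It lay between 5.91 and 6.44 in mCG-PR SLAM cells, 6.15 and 6.18 in WT SLAM cells, 6.25 and 6.32 in mCG-PR KLS cells of 13 weeks, 5.88 and 6.26 in those of 6 weeks, and 5.96 and 6.51 in WT KLS cells. The difference of SLAM from KLS cells was 0.08 in mCG-PR mice (adjusted p = 0.893) and -0.04 in WT mice (adjusted p = 0.961).

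Slamf6, Slamf7 and Slamf8 were below the level for testing, and their values are given as a description. Slamf6, or Ly108, is a self-binding receptor of T and natural killer cells. It had 5.01 and 4.63 log2 units in mCG-PR SLAM cells, 4.82 and 4.40 in WT SLAM cells, 4.95 and 5.76 in mCG-PR KLS cells of 13 weeks, 5.08, 6.94 and 4.98 in those of 6 weeks, and 4.40, 4.50, 5.27 and 4.79 in WT KLS cells. A single array, mCG-PR KLS 6 weeks replicate 2, was more than 1 log2 unit above all others.

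Slamf7, or CRACC, is a self-binding receptor of natural killer and plasma cells. It had 5.36 and 4.84 log2 units in mCG-PR SLAM cells, 5.10 and 4.62 in WT SLAM cells, 5.79 and 5.85 in mCG-PR KLS cells of 13 weeks, 5.83, 6.80 and 6.03 in those of 6 weeks, and 5.61, 5.89, 6.35 and 4.51 in WT KLS cells. Its highest value was again on mCG-PR KLS 6 weeks replicate 2. Slamf8, a member known from macrophages that lacks the tyrosine motifs, had 5.54 and 5.16 in mCG-PR SLAM cells, 6.68 and 5.62 in WT SLAM cells, and 4.83 to 5.90 on the 9 KLS arrays. Only WT SLAM replicate 1 was above the KLS range.

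The array with high Slamf6 and Slamf7 was also the highest of all arrays in the lists of mast cell and basophil, NK cell, monocyte and macrophage, and dendritic cell genes. The mean of the 4 mast cell and basophil genes was 7.60 on this array, while the other 4 mCG-PR KLS arrays had 5.90 to 6.55 and the WT KLS arrays 5.18 to 6.14. Cpa3, a mast cell protease gene, was 9.61 there and 6.98 and 7.14 on the other 2 arrays of its group, and Mcpt8, a basophil protease gene, was 9.69 against 7.36 and 8.09. Fcer1a, a subunit gene of the IgE receptor, was 4.32 there, against 4.54 and 3.14. The mean of the 4 NK cell genes was 6.49 there and 4.69 to 6.12 on the other 12 arrays. The mean of the 8 measured monocyte and macrophage genes of a list of 9 was 6.81, against 6.31 to 6.70. That of the 4 dendritic cell genes was 6.76, against 5.63 to 6.68. The mean of the T cell genes was 5.71, the lowest of all arrays, against 5.75 to 6.29 on the others. The means of the B cell, erythroid, and platelet and megakaryocyte genes were 6.10, 5.95 and 6.69, within the range of the other arrays. Cd48 had its highest value of all arrays, 9.61, on the same array, and the part of such cells in these values was not tested.

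**Figure D4:**
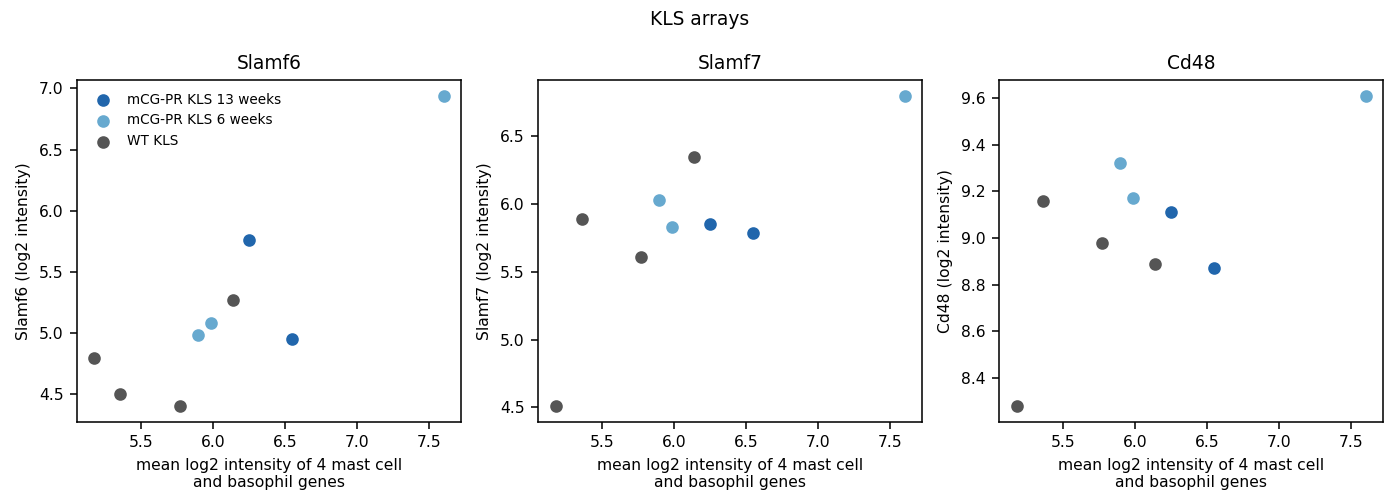
Log2 intensity of Slamf6, Slamf7 and Cd48 on the 9 KLS arrays, by panel, against the mean log2 intensity of 4 mast cell and basophil genes on the same array. The point at 7.60 on the horizontal axis is mCG-PR KLS 6 weeks replicate 2, which is also highest for Slamf6 (6.94), Slamf7 (6.80) and Cd48 (9.61).

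No member passed the test between mCG-PR and WT cells of the same population. In SLAM cells 0 of 6 were called by limma, as were 0.0% of all tested genes, and Slamf1 alone had an unadjusted p under 0.05, as 664 of the 10586 genes did. On simulated data this fit of 2 arrays against 2 called none of the changed genes, so the absence of calls says nothing about the members. Slamf1 was lower in mCG-PR SLAM than in WT SLAM cells by -1.16 ± 0.31 (95% interval -1.93 to -0.39, unadjusted p = 0.0111, adjusted p = 0.750), and the arrays of the groups did not overlap. Its 8 probe sets did not share 1 direction: 6 were lower, 2 of them without overlap, and 2 were higher. Their differences ran from -2.05 to 1.11. With 2 arrays against 2, 35.2% of all tested genes did not overlap, as 4 of the 6 members did not. Tek, a receptor of stem and endothelial cells, was the tested gene with the pattern over the 13 arrays most like that of Slamf1, and it averaged 6.34 in mCG-PR SLAM and 7.55 in WT SLAM cells. As it was chosen for this likeness, its values are no support for the difference of Slamf1.

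Cd48 was -0.88 ± 0.38 in mCG-PR SLAM against WT SLAM cells (adjusted p = 0.807) and -0.45 without WT SLAM replicate 2, the array with high B cell genes. Cd244 was 0.43 ± 0.30 (adjusted p = 0.884), with 12 of 13 probe sets higher and 4 of them without overlap. Ly9 was -0.53 ± 0.32 (adjusted p = 0.873), with 10 of 14 probe sets lower, 3 of them without overlap, and 2 higher without overlap. Of all tested genes, 35.2% did not overlap in this comparison, which is a share of genes and not of probe sets. Cd84 was 0.15 and Slamf9 0.01.

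In KLS cells, 0 of 6 members were called by limma for both ages of mCG-PR against WT, where 0.085% of all tested genes were (0.0567% higher and 0.0283% lower), and 1 member had an unadjusted p under 0.05, as 1278 of the 10586 genes did. That member was Cd244, at 0.37 ± 0.16 (95% interval 0.02 to 0.72, unadjusted p = 0.0405, adjusted p = 0.390), with 13 of 13 probe sets higher. At 13 weeks alone it was 0.55 ± 0.20 (0.13 to 0.98, unadjusted p = 0.0149, adjusted p = 0.269), both arrays being above all WT KLS arrays. At 13 weeks 0 of 6 members were called, against 0.00945% of all genes, and 25.0% of all genes did not overlap.

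At 6 weeks Cd48 was the member with the smallest unadjusted p, with 0.54 ± 0.20 against WT KLS cells (95% interval 0.11 to 0.96, unadjusted p = 0.0165, adjusted p = 0.292). All 3 arrays were above all 4 WT arrays, as was the case in one direction or the other for 11.0% of all genes. The lowest of the 3 had 9.17 log2 units and the highest WT array 9.16. Of the 9 probe sets 9 were higher, 2 of them without overlap. The change was 0.42 without the array with high mast cell genes and 0.36 without WT KLS replicate 4, the lowest WT array (8.28). Here 0 of 6 members were called, against 0.0378% of all genes. The median over all tested genes was 0.11 in this comparison, and the change of Cd48 relative to it was 0.43. The WT KLS mice were older than these mCG-PR mice, so age and genotype cannot be told apart there.

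Between 13 and 6 weeks in mCG-PR KLS cells, 0 of 6 members were called, against 0.00945% of all genes. Cd84 was -0.41 ± 0.18 (unadjusted p = 0.0379, adjusted p = 0.377), Slamf1 0.52 ± 0.29 and Cd48 -0.38 ± 0.24 (adjusted p = 0.534). Leaving out 1 array of the older mice moved the change of Slamf1, to 0.18 without replicate 1 of that group and 0.85 without replicate 2. The 8 probe sets of Slamf1 were split, 4 being higher and 4 lower at 13 weeks. Their differences ran from -1.28 to 1.02, with a median of -0.02. For Cd48, Cd244 and Cd84 the arrays of the ages did not overlap, as for 30.8% of all genes. The mCG-PR comparisons of each age share the WT KLS arrays.

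**Figure D5:**
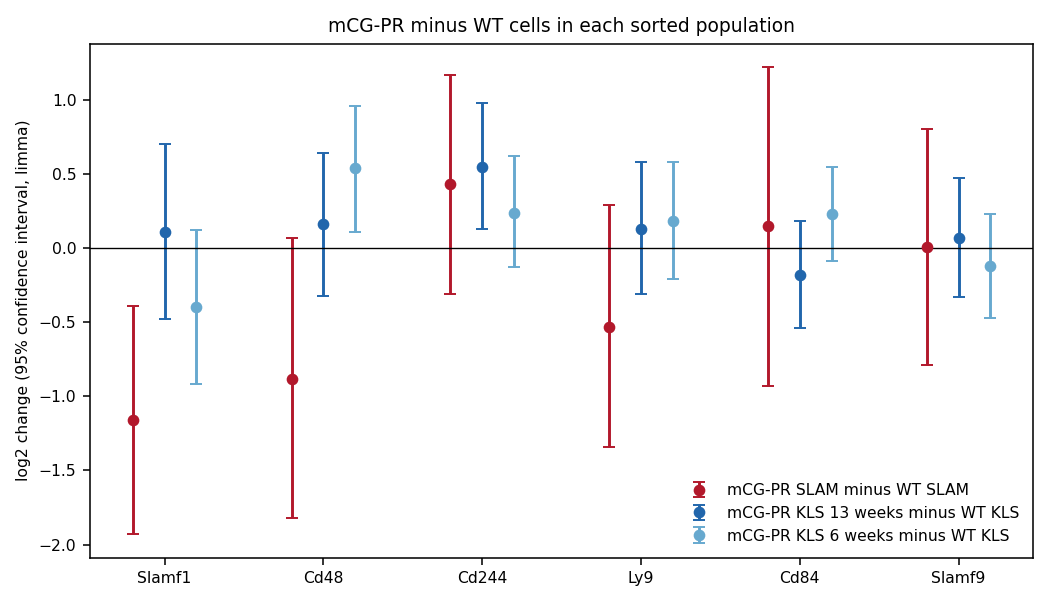
Log2 difference of mCG-PR minus WT cells for the 6 tested members, in SLAM cells, KLS cells of 13 weeks and KLS cells of 6 weeks, with 95% confidence intervals from limma. The intervals in SLAM cells are the widest, Slamf1 there lies at -1.16, and no difference passed after adjustment over all genes.

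The mCG-PR effect in SLAM cells minus that in KLS cells of 6 weeks was tested directly, and 0 of 6 members were called, against 0.0189% of all genes. Cd48 was -1.42 ± 0.50 (95% interval -2.49 to -0.35, unadjusted p = 0.0129, adjusted p = 0.406) and -0.99 without WT SLAM replicate 2, and its SLAM values lie near the bottom of the scale. Ly9 was -0.71 (adjusted p = 0.743), and Cd244 was 0.18 and Cd84 -0.08.

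The adaptors and effectors that act below these receptors were followed as a list of 28 genes, of which 24 were measured and 21 tested. Sh2d1a, which encodes SAP, was 4.09 to 5.26 log2 units over all arrays, and Sh2d1b1, which encodes EAT-2, was 4.57 to 6.09, both below the level for testing. In mCG-PR SLAM against mCG-PR KLS cells 3 of 21 were lower and 0 higher, near the 12.3% of all tested genes called lower, with a list median of -0.44 beside -0.19 for all genes. The 3 genes were Vav3, a guanine nucleotide exchange factor (-1.59 ± 0.23, adjusted p = 0.000913), Rasa1, a brake on Ras (-1.33 ± 0.23, adjusted p = 0.00290), and Inpp5d, the lipid phosphatase SHIP-1 (-1.08 ± 0.28, adjusted p = 0.0219).

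In WT SLAM against WT KLS cells 1 of 21 was lower, again Vav3 (-1.14 ± 0.22, adjusted p = 0.0153), beside 2.77% of all tested genes called lower, with a list median of -0.12 beside -0.05. Fyn, the kinase that SAP recruits, is given for that role and was chosen after its values were seen. It was -0.71 ± 0.27 in mCG-PR mice and -0.84 ± 0.26 in WT mice (adjusted p = 0.0990 and 0.0978). Vav3 averaged 7.16 ± 0.04 in mCG-PR SLAM (SD, n = 2) and 8.75 ± 0.07 in mCG-PR KLS cells of 6 weeks (SD, n = 3), and 7.19 ± 0.02 in WT SLAM (SD, n = 2) and 8.33 ± 0.14 in WT KLS cells (SD, n = 4). In the comparisons of mCG-PR with WT cells and of the ages, 0 of 21 were called, where 0.0% to 0.085% of all tested genes were.

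Cd2, the other mouse receptor for Cd48, and its partners Cd2ap, Cd2bp2 and Pstpip1 were tested in all comparisons, and 0 of 4 were called in any of them. Over all tested genes, 0.0% to 13.1% were called in these comparisons. Cd2 itself, given for its role and chosen after its values were seen, was -0.03 ± 0.40 in mCG-PR SLAM against mCG-PR KLS cells and 0.64 ± 0.40 in WT SLAM against WT KLS cells (adjusted p = 0.979 and 0.438). Of 17 listed genes around the SLAM locus, 15 were measured and 11 tested. Of these 11, 1 was lower in mCG-PR SLAM than in mCG-PR KLS cells, a share no higher than the 12.3% of all tested genes. It was Pfdn2, a subunit of the prefoldin chaperone (-0.79 ± 0.25, adjusted p = 0.0480). In WT mice 0 were called, beside 3.12% of all tested genes, and Arhgap30 was -1.08 ± 0.35 (adjusted p = 0.107).

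For Slamf1 and Cd48 the genes with the most similar pattern were sought over the 13 arrays, by the root mean square difference of log2 values after each gene's own mean was subtracted. For Slamf1 they were Tek (0.37 log2 units), Pdzk1ip1 (0.38), Rbm4 (0.41), Jund (0.42) and Tgm2 (0.43), against a median of 0.84 over all tested genes. For Cd48 they were Tespa1 (0.39), Dntt (0.74), Mpo (0.74), Cdk6 (0.77) and Cst7 (0.88), against a median of 2.01. Tespa1, a gene of lymphocyte receptor signalling, averaged 4.20 on the SLAM and 8.33 on the KLS arrays, and Dntt, which encodes terminal transferase of early lymphocytes, averaged 4.60 and 10.2. The arrays share the split between the sorted populations, which weighs most in this measure.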

How the data were processed

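RNA of sorted KLS and SLAM marrow cells was measured in 13 mice, 1 array each, from 20 ng of total RNA per the labels' protocols. Per the submitters' processing notes, the authors ran RMA with the mm9 build; the sources used here give neither its version nor its settings. The deposited values were linear intensity (2.34 to 21748.2), from which log2 was taken here, with no further scaling.

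The 208397 probe sets annotated to a single gene were used, and those of several genes (3965) or no gene (17219) were not. A gene's value was the median log2 of at least 3 probe sets (15123 genes), and a gene was tested if its mean log2 over the arrays passed the 30th percentile. KLS comparisons were fitted with limma 3.58.1 (R 4.3.3) on the 9 KLS arrays, and mCG-PR against WT SLAM on the 4 SLAM arrays. SLAM against KLS and the interaction used all 13 arrays, weighted by population, since the median SD within groups was 0.325 in SLAM and 0.217 in KLS arrays. The fits were tested on simulated data, with each gene's spread taken from its own population: the KLS fits recovered most changed genes with false calls near the threshold, the fits of all 13 arrays made more false calls than the threshold allows, and the fit of the 4 SLAM arrays made no calls. Replicates are separate mice.

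The members, lists and tests were chosen with earlier results of these data known. All members were named; from each list, up to 4 genes that passed with the smallest p, or else the 2 with the smallest p, could be named. Same-numbered arrays correlated at -0.0657 to 0.0773 in their deviations from group means, so replicate numbers were not treated as pairs. Alternatives were other filters, summaries, scalings, weights, control arrays, a replicate block and leaving out each array. Elane was not analysed here.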

Additional observations from a re-analysis of the deposited data

Results flagged for a closer look

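For each of the 9 members, WT KLS cells (4 arrays) and mCG-PR KLS cells of both ages (5 arrays) were examined, and SLAM cells were not. Of these 18 groups, 1 held an array far from the others of its group: Slamf7 in mCG-PR KLS cells of both ages. There 6 weeks replicate 2 had 6.80 log2 units and the other 4 arrays had 5.79 to 6.03. About 1 in 20 such groups would hold one by chance. The same array was highest in Slamf6, at 6.94. It was also highest in the means of 4 mast cell and basophil genes (7.60), 4 NK cell genes (6.49), 8 monocyte and macrophage genes (6.81) and 4 dendritic cell genes (6.76). It was lowest of all arrays in the mean of the T cell genes (5.71). The part of such cells in the Slamf7 value was not tested.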

How the results depend on the processing

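In WT SLAM against WT KLS cells, 4 members were called, but 1 (Cd48) after quantile normalisation, 2 (Cd48 and Cd244) with WT KLS replicates 1 and 2 only, and 1 to 4 when 1 array was left out, where 1 (Cd48) followed from leaving out either WT SLAM array. In mCG-PR SLAM against mCG-PR KLS cells 3 were called and 2 to 3 when 1 array was left out; Slamf1 was added without array weights (adjusted p = 0.0380) and Cd244 lost after quantile normalisation (adjusted p = 0.149). Cd48 was called in 15 of 15 and 12 of 12 alternatives. In the other 6 comparisons 0 members were called under each alternative run. With WT KLS replicates 3 and 4 only, Cd244 was lost in WT SLAM against WT KLS cells (limma, adjusted p = 0.0625). The cause of these shifts was not tested.

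With the replicate block 4 members were called in WT SLAM against WT KLS cells and 3 in mCG-PR SLAM against mCG-PR KLS cells, so the block changed no such count, while genes called among all tested numbered 189 in place of 330 for WT cells.

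Counts over all genes varied more: 94 to 1229 (330 as reported) for WT SLAM against WT KLS, 398 to 2394 (1386) for mCG-PR SLAM against mCG-PR KLS, 0 to 275 (0) for mCG-PR against WT SLAM, 0 to 107 (2) for the interaction, 0 to 41 (9) for KLS of both ages, 0 to 43 (4) at 6 weeks, 0 to 15 (1) at 13 weeks and 0 to 17 (1) for 13 against 6 weeks. The highest counts of the first 4 came from fits of all 13 arrays without weights, which for mCG-PR against WT SLAM also added the 9 KLS arrays. Pairs of arrays and dim signal near the bottom of the scale limit the SLAM values.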
